A study of Chlamydomonas reinhardtii with 16 samples.

Results

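The comparison described here follows *C. reinhardtii*, a unicellular green alga, through the last 3 hr of the light period. It uses 4 of the 16 RNA sequencing libraries of a diel time course, chosen by their labels alone: 2 cultures taken at ZT 9 (zeitgeber time, 9 hr after lights on) and 2 taken at ZT 12, while the light was still on. All 4 were cultures of strain dw15.1 in Tris-acetate-phosphate medium, in shaken flasks without aeration, kept for 48 hr under alternating light (12 hr) and dark (12 hr). Each library came from its own culture (replicates A and B), and all cultures had been started from 1 parent culture. Acetate in the medium is a carbon source besides photosynthesis. Because RNA was measured in bulk, fewer cells expressing a gene and less RNA per cell cannot be told apart.

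In a light/dark cycle this alga grows by photosynthesis during the day and divides around nightfall, in a rapid series of DNA replications and mitoses. A growing cell swims with flagella built on microtubules, which are taken down before division and built again afterwards. Light-harvesting proteins, which hold chlorophyll around the photosystems, and Calvin cycle enzymes, which fix carbon dioxide, serve the daytime phase. Cyclins, the activating partners of cyclin-dependent kinases, and tubulins, kinesins and histones serve replication and mitosis.

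Levels are given in FPKM, the fragments of a gene divided by its transcript length and by the reads mapped in the library, scaled so that every library had the same 75th percentile over the 17114 gene models. Genes averaging 1 FPKM or more over the 4 libraries, 11732 in all, were tested. Changes are the log2 change of FPKM + 1 from ZT 9 to ZT 12 with its standard error (SE), a scale that understates the change of low genes, and fold changes are ratios of the mean FPKM at the 2 time points. The fragments behind the libraries numbered 15137979 and 11022238 at ZT 9 (A and B) and 14273759 and 5866513 at ZT 12, the last being the shallowest of the 16. Replicates correlated at 0.993 (ZT 9) and 0.995 (ZT 12) over log2 values of genes, and libraries of different time points at 0.871 to 0.883.

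Between ZT 9 and ZT 12 the transcript levels of 8508 genes (72.5% of those tested) changed at an adjusted p under 0.05 in limma. Of these, 3405 rose (29.0% of those tested) and 5103 fell (43.5%). The changes that were large were more often increases. At least 2-fold increases, judged on the log2 scale, were found for 1066 genes (9.09%), and decreases of that size for 640 (5.46%). With a pseudocount of 0.1 in place of 1 these numbers were 1408 and 1298, so the size of the excess depends on the pseudocount. At a minimum level of 5 FPKM, with 4902 genes tested, they were 556 and 388. At least 4-fold changes were found for 275 genes that rose and 60 that fell. The median change of all genes was -0.13 on the log2 scale, and 90% of genes lay between -1.03 and 1.41. Both cultures of one time point lay above both of the other in 99.8% of the genes that passed the test, against 84.9% of all genes tested. Without the scaling between libraries the median of all genes moved up by 0.10, so a small change of a single gene depends on the scaling.

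**Figure D1:**
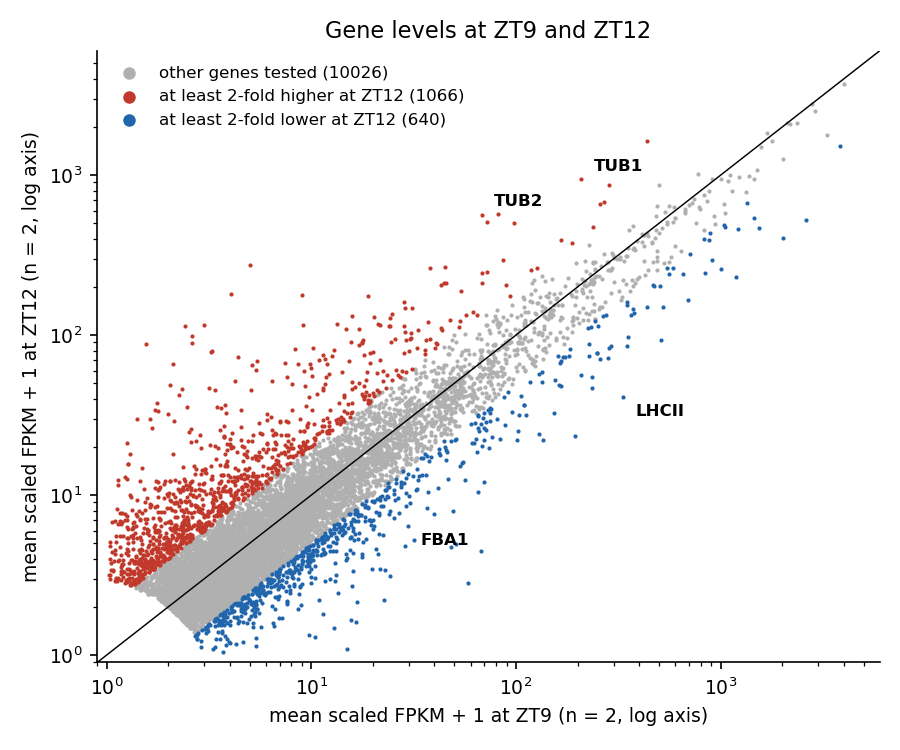
Mean scaled FPKM + 1 at ZT 9 (horizontal, log axis) and ZT 12 (vertical, log axis), 2 cultures each, for the 11732 genes tested, with the line of equal levels. Red points are the 1066 genes at least 2-fold higher and blue points the 640 at least 2-fold lower at ZT 12; TUB1 and TUB2 lie far above the line and LHCII and FBA1 far below it.

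The genes that rose at least 2-fold mostly had their highest level of the day at ZT 12. Of the 1066, 612 (57.4%) had the highest of their 8 time-point means at ZT 12, 140 at ZT 15 and 132 at ZT 3, while 17.6% of all genes tested were highest at ZT 12. Their lowest means lay at ZT 3 in 316 genes, at ZT 6 in 317 and at ZT 9 in 292. The 640 genes that fell at least 2-fold had mostly been highest at ZT 6 (304 genes) or ZT 9 (162 genes), and 293 of them (45.8%) were lowest of all time points at ZT 12, against 18.8% of all genes. These time points include the libraries that chose the genes, so the counts are a description and no test was made.

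Transcripts of the microtubule genes, several of them already abundant, rose in both cultures. TUB2 (Cre12.g549550, chromosome 12, 7755036 to 7757478), which encodes beta-tubulin, a subunit of the microtubule, measured 65.8 and 68.0 FPKM in the cultures at ZT 9 and 512 and 622 FPKM at ZT 12. The cultures at ZT 12 were far above those at ZT 9, and the change was 8.47-fold (log2 change 3.06, SE 0.09, adjusted p = 1.28e-12). TUB1 (Cre12.g542250, chromosome 12, 6949122 to 6951771), also listed as beta-tubulin, went from 202 and 214 FPKM to 841 and 1037 FPKM, or 4.52-fold (log2 change 2.16, SE 0.10, adjusted p = 7.23e-11). The groups did not overlap for either gene. Over the whole day both were lowest at ZT 6, with means of 30.9 FPKM for TUB2 and 149 FPKM for TUB1. From ZT 15 to ZT 21 TUB1 stayed between 825 and 929 FPKM, and at ZT 0, just before lights on, its mean was 686.5 FPKM. TUB2 declined in the night, from a mean of 566.7 FPKM at ZT 12 to 387.9 FPKM at ZT 21 and 186.9 FPKM at ZT 0.

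All 10 members of the tubulin family in the study's trees of protein domains were tested. Of these, 7 rose (70.0%, against 29.0% of all genes), 6 of them at least 2-fold, and 1 fell (10.0%, against 43.5%). The median log2 change was 1.0. The third largest increase was that of Cre03.g190950 (chromosome 3, 5007432 to 5009661), from 420 and 449 FPKM to 1418 and 1844 FPKM. The member that fell, Cre03.g187350, was a low transcript, with means of 10.1 and 4.74 FPKM (log2 change -0.95). Summed over the family, the level went from 1036 and 1098 FPKM to 3663 and 4570 FPKM. Very similar tubulin copies may share reads, and the authors' mapping kept 1 hit per read, so the division of reads among them is uncertain.

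Kinesins, motor proteins that move along microtubules in mitosis and in flagella, mostly rose too. Of 38 members 32 were tested (6 were under the minimum level). Among the 32, 23 rose (71.9%, against 29.0% of all genes), 13 of them at least 2-fold. Another 4 fell (12.5%, against 43.5%), none of them 2-fold. Cre05.g233100 changed most, from 2.98 and 3.22 FPKM to 22.2 and 24.8 FPKM (log2 change 2.58, SE 0.10, adjusted p = 1.02e-11). Cre10.g456350 (log2 change 2.53) and Cre01.g065200 (log2 change 2.27) followed. In the actin family, the other main cytoskeletal family, 5 of 7 members fell (71.4%, against 43.5% of all genes), by at most 0.51 on the log2 scale. Of the 7, 0 rose, also at an unadjusted p under 0.05 or in limma-voom. The largest upward change in the family, 0.54, was that of a member that did not pass the test.

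**Figure D2:**
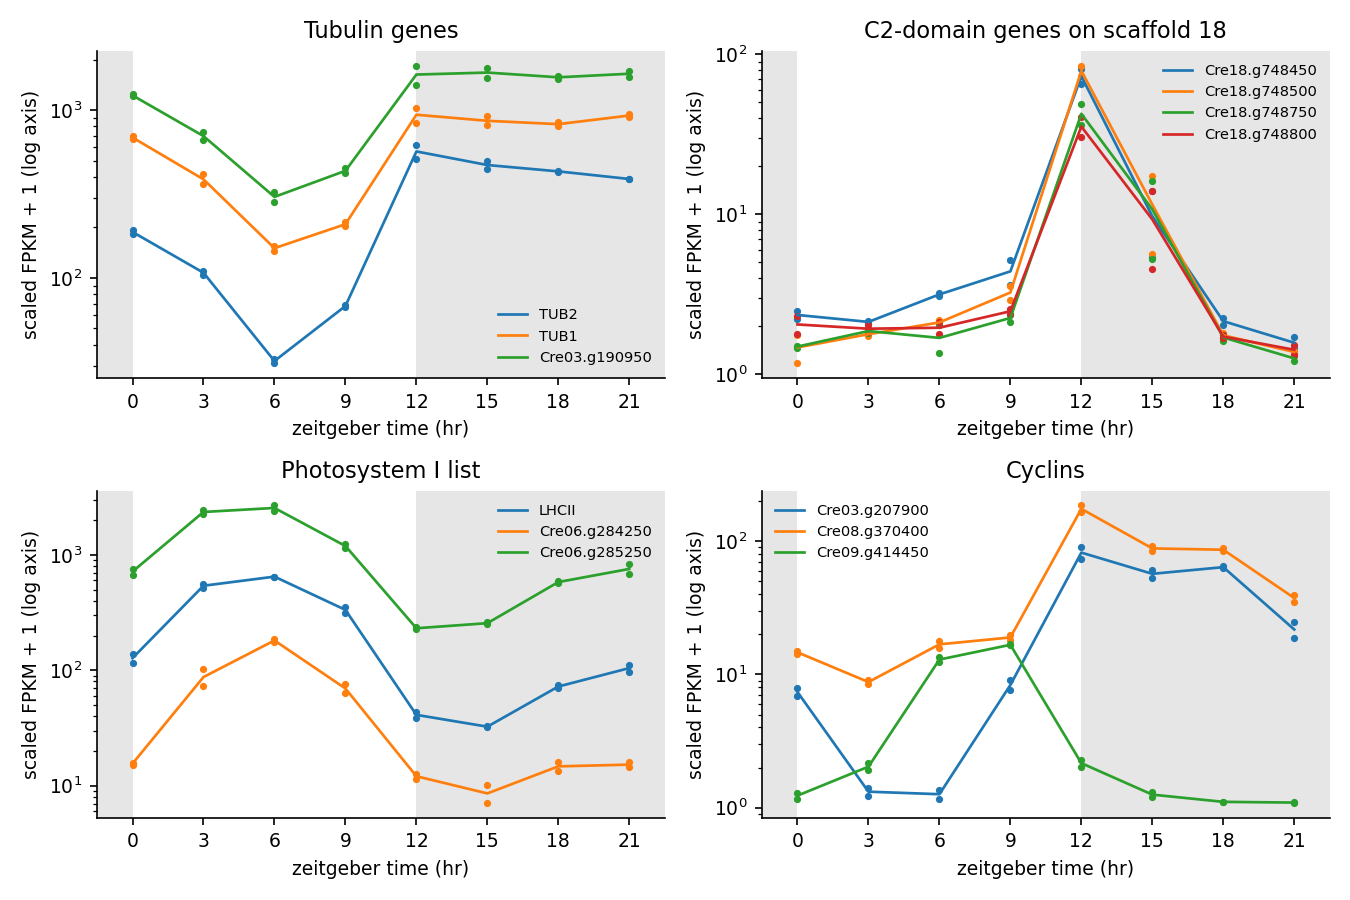
Scaled FPKM + 1 (log axis) against zeitgeber time for 4 groups of genes; points are the 2 cultures of a time point, lines join their means, and grey marks the dark period. The 3 tubulin genes were higher at ZT 12 than at ZT 9, stayed above their ZT 9 level through ZT 21, and were lower at ZT 0 than at ZT 21. Of the cyclins, 2 were highest at ZT 12. The C2-domain genes were high at ZT 12 and again low by ZT 18. The 3 genes of the photosystem I list were highest at ZT 6 and low at ZT 12 and ZT 15.

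Cyclins moved in both directions and held some of the largest changes in each. Of 17 members 16 were tested, and their median was -0.32. Among the 16, 4 rose (25.0%) and 9 fell (56.2%), against 29.0% and 43.5% of all genes. Cre03.g207900 (chromosome 3, 7051189 to 7053736) measured 6.65 and 8.03 FPKM at ZT 9 and 73.0 and 89.7 FPKM at ZT 12 (11.1-fold, log2 change 3.30, SE 0.14, adjusted p = 4.28e-11). Cre08.g370400 (chromosome 8, 1844036 to 1846908) measured 18.8 and 17.2 FPKM, then 164 and 185 FPKM (9.71-fold, log2 change 3.21). These were the highest means of the day for both genes. Cre09.g414450 (chromosome 9, 4361538 to 4366629) went the other way, from 15.8 and 15.6 FPKM to 1.28 and 1.04 FPKM (log2 change -2.96, SE 0.09, adjusted p = 1.74e-12), and its mean was 0.10 FPKM at ZT 18. Which phase of the cell cycle each of these cyclins serves is not annotated in the sources used here.

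Some genes for DNA synthesis and chromatin also rose. The ribonucleotide reductase small subunit gene Cre12.g491050, for the enzyme that makes DNA precursors, had means of 0.50 FPKM at ZT 3 and 0.73 FPKM at ZT 6. It measured 26.5 and 32.9 FPKM at ZT 9 and 93.5 and 111 FPKM at ZT 12 (log2 change 1.76, SE 0.17, adjusted p = 2.18e-07), and the other of the 2 family members did not pass the test. For core histones, the proteins that package DNA, only 10 of 129 gene models reached the minimum level, and the other 119 were not tested. Very similar copies may share reads, and the authors' mapping kept 1 hit per read, so the low levels of the 119 are uncertain. Of the 10 tested, 6 rose (60.0%, against 29.0% of all genes) and 1 fell (10.0%, against 43.5%). Cre13.g567700 was the most abundant of them, with 78.8 and 82.8 FPKM at ZT 9 and 527 and 618 FPKM at ZT 12 (log2 change 2.81, SE 0.11), and the next largest change was that of Cre16.g661450 (log2 change 2.08). The 2 tested DNA polymerases of family B had log2 changes of 0.04 and 0.29, and only the second, Cre04.g214350, passed the test. It lost the call without ZT 9 A (adjusted p = 0.126), without ZT 12 B (adjusted p = 0.142) or with a pseudocount of 0.1 (adjusted p = 0.0913). SNF2 ATPases, which remodel chromatin, had 6 of 23 tested members that rose (26.1%), the largest Cre03.g189000 (log2 change 1.0), and 10 that fell (43.5%), shares near the 29.0% and 43.5% of all genes.

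The genes of the proteasome fell together, and those of the ubiquitin system moved both ways. The 20S proteasome, the core particle that degrades ubiquitin-marked proteins, had all of its 16 subunit genes tested. All 16 fell (100.0%, against 43.5% of all genes), none 2-fold, with changes from -0.24 to -0.62. Their summed level was 601.3 and 601.1 FPKM at ZT 9 and 444 and 452 FPKM at ZT 12. Of 24 ubiquitin-conjugating enzymes, which pass ubiquitin on to targets, 8 rose (33.3%) and 6 fell (25.0%), against 29.0% and 43.5% of all genes. Cre10.g430050 rose from 2.76 and 3.23 FPKM to 19.5 and 23.1 FPKM (log2 change 2.48, SE 0.09, adjusted p = 9.73e-12). RING finger proteins, many of which choose those targets, numbered 44 tested of 60, with 11 that rose (25.0%) and 21 that fell (47.7%), near the 29.0% and 43.5% of all genes. Cre10.g442750 rose (log2 change 2.67), as did Cre03.g161500 (log2 change 2.59), and Cre01.g035400 fell by as much, from 10.0 and 10.9 FPKM to 0.75 and 0.85 FPKM (log2 change -2.67, SE 0.09).

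Protein kinases transfer phosphate to other proteins. Of 594 members 366 were tested, 76 rose (20.8%, against 29.0% of all genes tested) and 187 fell (51.1%, against 43.5%), with a median of -0.20. A few of the 76 rose very steeply. Cre12.g498650 (chromosome 12, 1842933 to 1848524) went from 0.87 and 0.69 FPKM to 38.1 and 27.3 FPKM, 41.7-fold (log2 change 4.22, SE 0.13, adjusted p = 1.83e-12), and rose further to a mean of 58.2 FPKM at ZT 15. Cre10.g464100 went from 0.74 and 0.60 FPKM to 23.5 and 27.3 FPKM (log2 change 3.98, SE 0.12). In Cre07.g355250 the step was from 2.62 and 2.84 FPKM to 22.8 and 29.5 FPKM (log2 change 2.85). Cre04.g223200 was the kinase that fell most, from 19.0 and 18.6 FPKM to 2.40 and 2.55 FPKM (log2 change -2.51). The catalytic role of each kinase is not annotated in the sources used here.

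Among DNA-binding proteins, the Myb family of transcription factors and related proteins had 29 of 39 members tested. Among the 29, 8 rose (27.6%), 6 of them at least 2-fold, and 14 fell (48.3%), near the 29.0% and 43.5% of all genes. Cre06.g249050 went from 0.81 and 0.84 FPKM to 9.19 and 11.3 FPKM (log2 change 2.61), and Cre01.g057650 from 0.43 and 0.38 FPKM to 7.44 and 5.28 FPKM (log2 change 2.37). Cre17.g696750 fell from 20.1 and 20.2 FPKM to 3.11 and 3.50 FPKM (log2 change -2.30, SE 0.07, adjusted p = 1.83e-12), and its mean at ZT 15 was 0.09 FPKM. RRM proteins, which bind RNA, had 86 tested members. Among the 86, 17 rose (19.8%) and 35 fell (40.7%), against 29.0% and 43.5% of all genes. The largest change was that of Cre13.g573650, from 0.44 and 0.47 FPKM to 5.29 and 6.77 FPKM (log2 change 2.27).

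Of the 6 largest increases of genes in a named family, 4 belonged to genes with C2 domains, a fold that binds membranes, often with calcium. They lie in 2 adjacent pairs on scaffold 18, within a stretch of 49.8 kb that holds 9 gene models. Cre18.g748450 (809952 to 811877) measured 4.21 and 2.59 FPKM at ZT 9 and 79.3 and 64.5 FPKM at ZT 12 (log2 change 4.07, SE 0.29). Its neighbour Cre18.g748500 (812038 to 813833), 160 bases on, measured 2.56 and 1.93 FPKM, then 83.8 and 71.6 FPKM (34.6-fold, log2 change 4.60, SE 0.33, adjusted p = 1.26e-08). The other pair, 200 bases apart, behaved alike. Cre18.g748750 (855972 to 857767) went from 1.37 and 1.14 FPKM to 47.9 and 35.0 FPKM (log2 change 4.22) and Cre18.g748800 (857968 to 859767) from 1.56 and 1.40 FPKM to 39.4 and 29.2 FPKM (log2 change 3.82).

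The increase of these 4 genes was short. At ZT 15 their means were between 8.29 and 10.5 FPKM, and the cultures of that time point differed, as at Cre18.g748500 with 4.65 FPKM in A and 16.3 FPKM in B. At ZT 18 and ZT 21 all 4 means were at most 1.15 FPKM. Another C2-domain gene of the same stretch, Cre18.g748700, fell, from a mean of 3.03 FPKM to 0.64 FPKM (log2 change -1.29), and the 4 gene models between the pairs that carry no C2 domain had means of at most 3.45 FPKM at either time point. Near-identical copies may share reads, so the 4 increases may not be independent of each other. In the whole family 24 of 29 members were tested. Among the 24, 14 rose (58.3%), 10 of them at least 2-fold, and 4 fell (16.7%), against 29.0% and 43.5% of all genes.

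**Figure D3:**
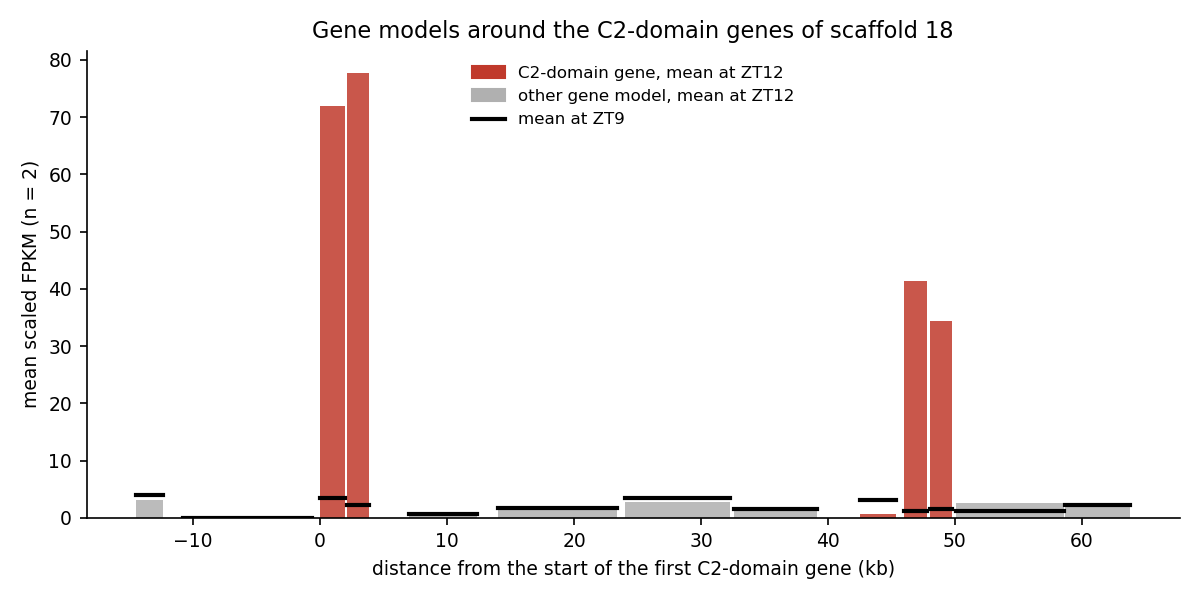
Mean scaled FPKM (2 cultures) of the gene models around the C2-domain genes of scaffold 18, placed by distance in kb from the start of Cre18.g748450. Bars give the mean at ZT 12, red for C2-domain genes and grey for others, and black lines the mean at ZT 9; 4 C2-domain genes reached 34.3 to 77.7 FPKM at ZT 12, and the other gene models drawn stayed under 5 FPKM.

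Neighbouring genes that changed together were found more widely. Of the 1066 genes that rose at least 2-fold, 203 (19.0%) lay directly beside another that did, while 12.9% of all tested genes lay beside such a gene. Of the 640 that fell at least 2-fold, 133 (20.8%) lay beside another, against 7.65% of all tested genes. These shares are a description, and no test of them was made.

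The genes of the photosystem I list fell. LHCII (Cre06.g283950, chromosome 6, 4071805 to 4073491; the study's gene table spells it LCHII), which holds chlorophyll in the antenna around the photosystems, measured 352 and 313 FPKM at ZT 9 and 37.3 and 42.8 FPKM at ZT 12. The cultures did not overlap, and the level was 8.30-fold lower at ZT 12 (log2 change -3.02, SE 0.10, adjusted p = 3.32e-12). In the study's list of photosystem I genes, which includes LHCII, all 9 members were tested and all 9 fell (100.0%, against 43.5% of all genes). Of the 9, 6 fell at least 2-fold, and the median was -1.44. The study drew this list from these libraries by time of peak expression, so it is not independent evidence of the direction. The study's gene table describes LHCII as a chlorophyll binding protein. Which of the other members are subunits of photosystem I and which belong to an antenna is not annotated in the sources used here.

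Of the other photosystem I list members, Cre06.g285250 (chromosome 6, 4214721 to 4216568) was the most abundant, with 1229 and 1155 FPKM at ZT 9 and 234 and 226 FPKM at ZT 12 (5.18-fold lower, log2 change -2.37, SE 0.09). Cre06.g284250 (chromosome 6, 4101498 to 4103651) fell from 75.1 and 61.9 FPKM to 10.4 and 11.7 FPKM (log2 change -2.52, SE 0.17). The 3 genes that fell most in this list thus lie near each other on chromosome 6. Whether they share reads was not tested, so their decreases may not be independent of each other. The smallest decrease was that of Cre09.g412100, with means of 1036 and 663 FPKM (log2 change -0.64). The sum over the 9 genes went from 6213 and 5775 FPKM to 2412 and 2388 FPKM, and their levels had been higher still at ZT 6, with a mean of 646 FPKM for LHCII. The list median was -1.09 from ZT 6 to ZT 9 and -0.51 from ZT 12 to ZT 15, steps that share libraries with the one described.

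Proteins of the thylakoid lumen, the space inside the photosynthetic membrane, were split. Of 9 genes on the study's list, also chosen on these libraries, 6 fell (66.7%) and 3 rose (33.3%), against 43.5% and 29.0% of all genes. The largest change was that of Cre02.g132800, from 1098 and 1005 FPKM to 491 and 449 FPKM (log2 change -1.16, SE 0.07, adjusted p = 2.54e-09). The thioredoxins, small redox proteins that switch enzymes in the chloroplast and elsewhere, had 43 of 45 members tested, of which 21 fell (48.8%), 7 at least 2-fold, and 13 rose (30.2%), shares near the 43.5% and 29.0% of all genes. Cre23.g766300 (scaffold 23, 81716 to 84790) had the largest decrease on the log2 scale among genes in a named family or list, from 51.4 and 43.4 FPKM to 3.37 and 4.14 FPKM (12.6-fold lower, log2 change -3.35, SE 0.09, adjusted p = 1.08e-12). Its mean had been 186 FPKM at ZT 6 and was 9.30 FPKM at ZT 15. Ferredoxins, iron-sulfur electron carriers, had 8 of 12 tested members that fell (66.7%) and 3 that rose (25.0%), against 43.5% and 29.0% of all genes. Cre07.g334800 rose from 1.37 and 1.58 FPKM to 7.56 and 5.05 FPKM (log2 change 1.54).

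**Figure D4:**
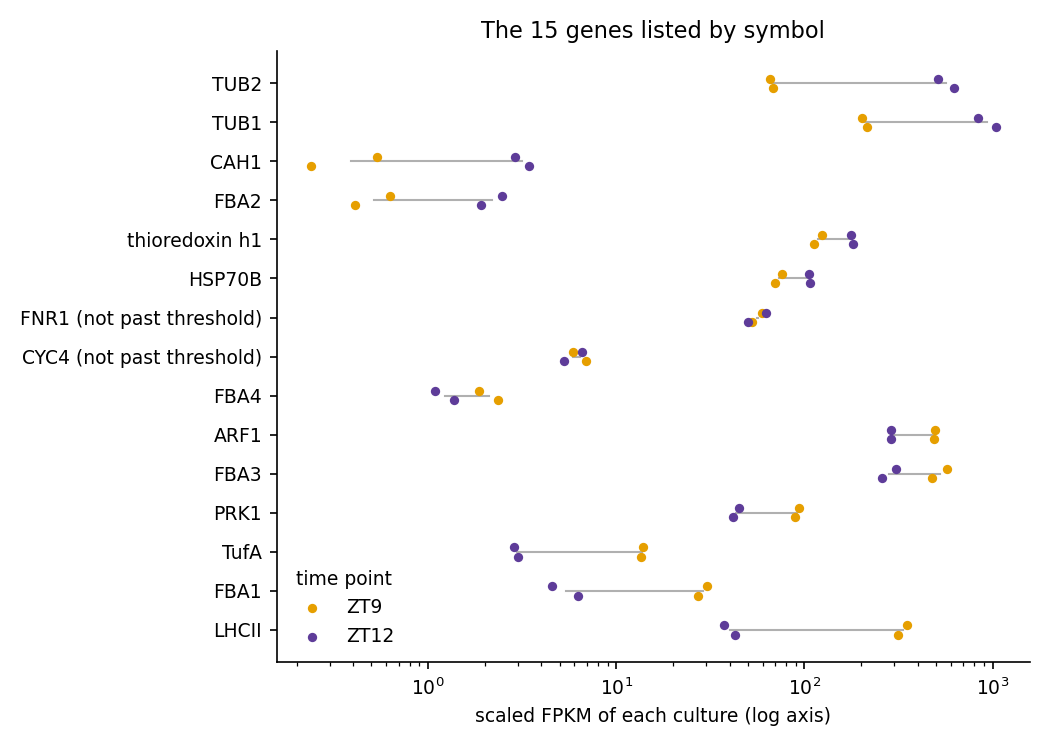
Scaled FPKM (log axis) of the 15 genes listed by symbol in the study, in each culture at ZT 9 (orange) and ZT 12 (purple), ordered by log2 change; grey lines join the means. TUB2 and TUB1 lie highest in the order and LHCII lowest, and the cultures of the 2 time points overlap for FNR1 and CYC4, which did not pass the test.

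The Calvin cycle enzymes of the study's gene table fell, with 1 exception. PRK1 (Cre12.g554800), phosphoribulokinase, which makes the acceptor for carbon dioxide, went from 93.1 and 88.7 FPKM to 45.2 and 41.7 FPKM (2.09-fold lower, log2 change -1.05, SE 0.07, adjusted p = 2.38e-09). The 4 genes listed as chloroplast fructose-bisphosphate aldolase, an enzyme of sugar phosphate metabolism, differed in level and direction. FBA3 (Cre05.g234550), by far the most abundant, fell from 575 and 477 FPKM to 306 and 259 FPKM (log2 change -0.90), and FBA1 (Cre01.g006950) fell more steeply, from 30.5 and 27.1 FPKM to 4.58 and 6.26 FPKM (log2 change -2.22, SE 0.12). FBA4 (Cre02.g115650) was low throughout, at 1.86 and 2.34 FPKM and then 1.09 and 1.38 FPKM (log2 change -0.47, adjusted p = 5.80e-03), and lost the call without ZT 9 B (adjusted p = 0.0606) or ZT 12 A (adjusted p = 0.0589). FBA2 (Cre02.g093450) was the exception and rose from 0.63 and 0.41 FPKM to 2.47 and 1.92 FPKM (log2 change 1.07, SE 0.09).

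The other genes of that table were as varied. TufA (Cre06.g259150), listed as elongation factor Tu, which brings aminoacyl-tRNA to the ribosome, fell from 13.9 and 13.6 FPKM to 2.88 and 3.03 FPKM (log2 change -1.90, SE 0.08, adjusted p = 2.15e-11). Cre17.g698000, listed as ATP2/ARF1 and described as an ADP-ribosylation factor, and placed with the ATP synthase alpha/beta family in the study's trees, fell from 492 and 488 FPKM to 289 and 288 FPKM (log2 change -0.76). HSP70B (Cre06.g250100), a chaperone, rose from 76.1 and 69.6 FPKM to 106 and 107 FPKM (log2 change 0.54), and cytosolic thioredoxin h1 (Cre09.g391900) from 124 and 112 FPKM to 178 and 182 FPKM (log2 change 0.60). Neither FNR1 (Cre11.g476750), ferredoxin NADP reductase, at means of 56.0 and 56.4 FPKM, nor CYC4 (Cre16.g670950), a cytochrome c, at means of 6.40 and 5.93 FPKM, passed the test. In all, 6 of the 15 rose (40.0%) and 7 fell (46.7%), against 29.0% and 43.5% of all genes. In each direction, 4 genes changed at least 2-fold.

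Alpha carbonic anhydrases, which convert bicarbonate and carbon dioxide, rose in both of the members tested (100.0%, against 29.0% of all genes). CAH1 (Cre04.g223100) measured 0.54 and 0.24 FPKM at ZT 9 and 2.90 and 3.45 FPKM at ZT 12 (log2 change 1.59, SE 0.14, adjusted p = 1.13e-07). At ZT 3 its mean had been 49.1 FPKM, so the increase was from the lowest mean of the day to a level well below the highest. Cre09.g415700 went from 3.58 and 3.54 FPKM to 26.1 and 25.1 FPKM (7.20-fold, log2 change 2.55, SE 0.08) and also had its lowest mean at ZT 9. The third member of the family was below the minimum level.

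Decreases were also common in 5 families of metabolic enzymes, which were picked with their values known and do not stand for metabolism as a whole: at least 65.0% of the tested members of each fell, against 43.5% of all genes. All 5 lactate/malate dehydrogenases, which interconvert organic acids, were tested and fell, and Cre03.g194850, with 354 and 343 FPKM at ZT 9 and 153 and 154 FPKM at ZT 12, changed most (log2 change -1.18, SE 0.06, adjusted p = 6.00e-10). Zinc-binding dehydrogenases had 6 that fell of 9 tested, and aldehyde dehydrogenases 8 that fell and 1 that rose of 10. Alpha-amylases, enzymes that cleave or rebuild starch-like glucans, had 6 that fell and 1 that rose of 9 tested, with a median of -0.61. Cre08.g384750 was the member that fell most, from 13.5 and 11.7 FPKM to 5.78 and 4.94 FPKM (log2 change -1.10). Cytochrome P450 enzymes, oxidases of many small molecules, had 13 that fell and 4 that rose, with 21 of 41 members under the minimum level. Both directions were large there, with Cre01.g003850 at -2.0 and Cre08.g373100 at 1.84.

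Mitochondrial carriers, which move metabolites across organelle membranes, showed the difference between a count and a summed level. Of 40 tested members 21 fell (52.5%) and 11 rose (27.5%), against 43.5% and 29.0% of all genes. The sum over the family, however, went from 2496 and 2473 FPKM to 1234 and 1218 FPKM. Cre03.g172300 (294 and 286 FPKM, then 84.3 and 84.9 FPKM, log2 change -1.76) and Cre02.g094250 (227 and 243 FPKM, then 48.7 and 42.8 FPKM, log2 change -2.34) were among the abundant members that fell. Together they account for only part of the fall of the sum. Cre02.g094250 was back at a mean of 168 FPKM at ZT 15 (log2 change from ZT 12 to ZT 15 of 1.85), so its low level was found at ZT 12 alone among the 8 time points.

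Chaperones, which help proteins fold, moved in both directions. TCP-1/cpn60 chaperonins, barrel-shaped folding machines, had 10 of 15 members that fell, by at most 0.97, and 3 that rose at least 2-fold, Cre17.g741450 (log2 change 1.22), Cre07.g339150 (1.11) and Cre32.g781650 (1.07). Their co-chaperonins of the cpn10 family, the lids of the organelle type of barrel, rose in 3 of 4 cases, with Cre12.g505850 going from 12.9 and 12.4 FPKM to 39.5 and 34.2 FPKM (log2 change 1.47, SE 0.08). Hsp70 chaperones had 5 that rose (50.0%) and 4 that fell (40.0%) of 10 tested, against 29.0% and 43.5% of all genes. Cre02.g080600 (log2 change 1.01) and Cre09.g393200 (-0.84) were at the ends. The DnaJ partners of Hsp70 had 28 that fell (57.1%) and 6 that rose (12.2%) of 49. Cyclophilins, which help proline bonds turn, had 17 that fell (58.6%) and 3 that rose (10.3%) of 29.

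**Figure D5:**
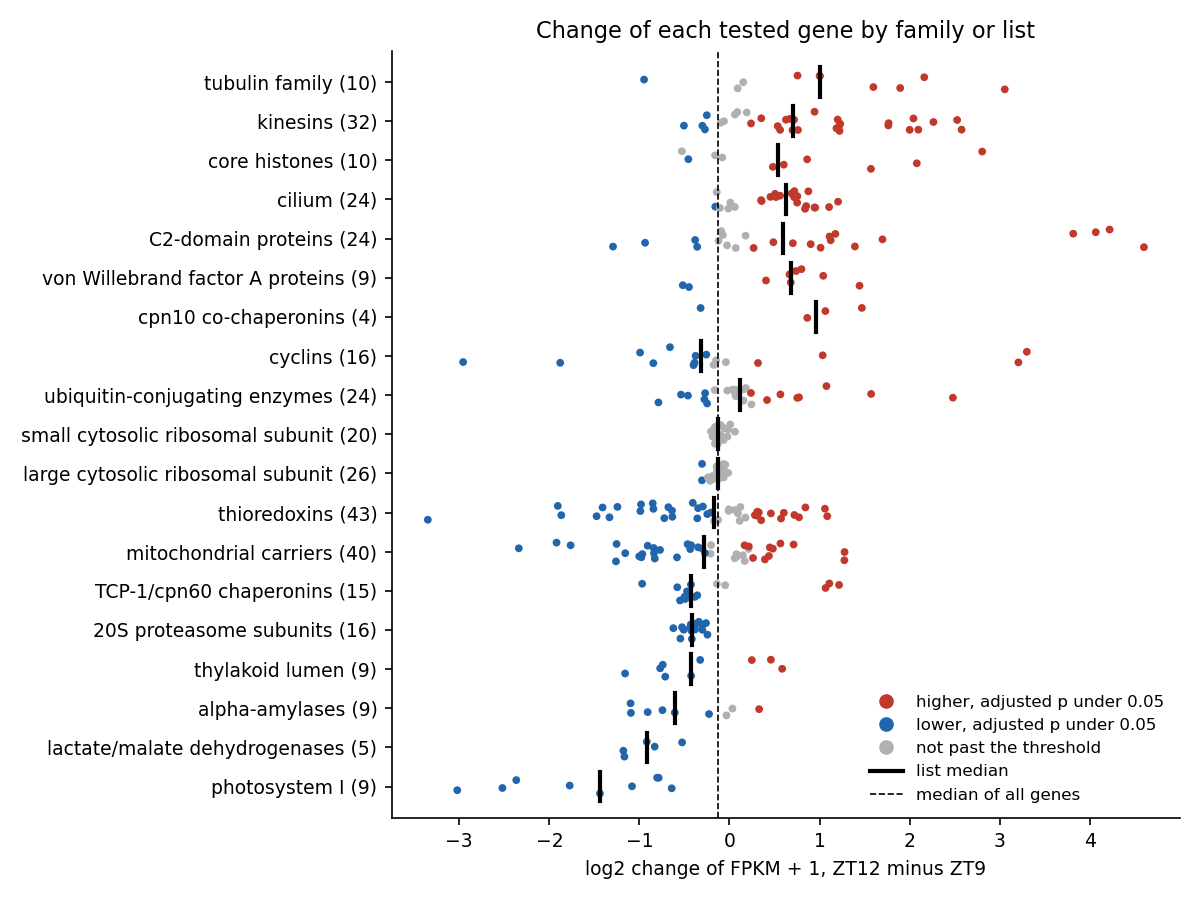
Log2 change of FPKM + 1 from ZT 9 to ZT 12 (horizontal) for each tested gene of 19 families and lists, with the number tested in brackets. Red and blue points passed the test upwards and downwards, grey points did not, black bars are list medians and the dashed line is the median of all genes at -0.13; the ribosomal lists sit at that line, the tubulin family to its right and the photosystem I list to its left.

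The genes of the cytosolic ribosome read from the study's lists barely moved. These lists too were chosen by the study on these libraries by time of peak expression, so their small changes are not independent evidence. The list for the large subunit may be incomplete as read here. Of its 26 genes, 2 passed the test, both downwards (7.69%, against 43.5% of all genes). Of 20 for the small subunit 0 did in limma, also at an unadjusted p under 0.05 and in limma-voom. Their medians were -0.12 in both, beside -0.13 for all genes. Without scaling between libraries both medians turned positive, to 0.01 and 0.02. Cre10.g417700 of the large subunit measured 792 and 780.0 FPKM at ZT 9 and 632 and 640 FPKM at ZT 12 (log2 change -0.31, SE 0.09, adjusted p = 5.84e-03), and lost its call without that scaling (adjusted p = 0.0839). The other, Cre04.g211800, lost its call in that case (adjusted p = 0.19) and without ZT 9 A (0.0761), ZT 9 B (0.0669) or ZT 12 A (0.136). Class I aminoacyl-tRNA synthetases, which load tRNAs, had 4 of 7 members that rose (57.1%, against 29.0% of all genes). Cre07.g350500 changed most (means of 2.49 and 6.60 FPKM, log2 change 1.13).

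Genes of the cilium (flagellum), which is built anew after division, were already rising before dark. Of 26 genes read from the study's list 24 were tested, 18 rose, 2 at least 2-fold, and 1 fell, with a median of 0.63. Cre10.g467000 rose from 3.69 and 4.59 FPKM to 11.1 and 10.5 FPKM (log2 change 1.21, SE 0.09, adjusted p = 2.32e-08). The list median was -0.45 from ZT 6 to ZT 9 and 1.74 from ZT 12 to ZT 15. This list too was chosen by the study on these libraries by time of peak expression, so its direction is not independent evidence. The list for cell projection organization, which shares genes with it, had 5 that rose (55.6%) and 1 that fell (11.1%) of 9.

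Beyond the named families, 163 of the 1066 genes that rose at least 2-fold and 114 of the 640 that fell at least 2-fold were members of a list or family used here (15.3% and 17.8%, against 16.4% of all genes tested). The largest increases of all were found at genes outside these lists, Cre17.g728750 (chromosome 17, 3988972 to 3993688), from 0.74 and 0.36 FPKM to 89.3 and 85.6 FPKM (log2 change 5.84, SE 0.11, adjusted p = 3.42e-14), and Cre02.g134650, from 4.64 and 3.40 FPKM to 287 and 256 FPKM (log2 change 5.77). The largest decreases were those of Cre17.g742128, from 59.2 and 55.8 FPKM to 1.86 and 1.77 FPKM (log2 change -4.38), and Cre15.g634850, from 67.7 and 65.8 FPKM to 3.25 and 3.74 FPKM (log2 change -3.92). Genes with fewer than 30 fragments in a culture of the higher time point were not eligible for these 4 places.

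The step from ZT 9 to ZT 12 held more genes past the test than its neighbours. The steps share libraries, and the genes tested in all of them were chosen by their level at ZT 9 and ZT 12. The shares of the steps are therefore not compared on equal terms. From ZT 6 to ZT 9, 65.2% of the genes passed, of which 4540 rose (38.7% of those tested) and 3115 fell (26.6%). At least 2-fold, 812 rose (6.92%) and 594 fell (5.06%). From ZT 12 to ZT 15, the first hours of darkness, 64.1% passed, of which 3395 rose (28.9%) and 4130 fell (35.2%). At least 2-fold, 637 rose (5.43%) and 535 fell (4.56%). The tubulin family had medians of 0.76, 1.0 and -0.28 in the steps before, at and after the one described, and the kinesins 0.43, 0.71 and -0.13. The 20S proteasome had 0.40, -0.41 and -0.82, positive into ZT 9 and negative in both later steps.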

How the data were processed

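The authors sequenced RNA of 16 cultures (TruSeq Stranded kit), mapped reads to genome version 4.3 with TopHat, keeping 1 hit per read, and deposited FPKM per gene model from Cufflinks, per the file headers. Program versions are not given in the sources used here. Lanes held 8 samples each and kept replicates apart, without a stated assignment of samples to lanes. Here each library was scaled to a common 75th percentile. Fragment numbers were recovered from the limits of Cufflinks, within 0.05 of whole numbers below 300 fragments in 100% of values, and cover counting error only.

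Log2(FPKM + 1) was fitted with limma 3.58.1 (R 4.3.3, Python 3.11.15) on all 16 libraries as a factor of 8 time points with an intensity trend, and p-values were adjusted by Benjamini-Hochberg over 11732 genes, threshold 0.05. The fit was tested on simulated data. Time points and replicate letters were taken from the sample titles, since letters in the file names at ZT 6 differ.

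Named genes are the 15 of the study's table of known cycling genes and the 10 largest changes in each direction among genes in a list or family read. For these 10, groups did not overlap and each higher culture had at least 30 fragments. Up to 3 of the largest per list were added and, in both directions, 2 genes outside the lists and families read, which may have annotation elsewhere. Other members given were named after their values were seen. Lists are the study's function lists, chosen on these libraries, and domain families from its trees. No function list held more than 26 genes as read here, so longer ones may be incomplete. The trees read numbered 200, for 137 domain families, so any other family is not covered. Members and lists were chosen with earlier results of these data known. Gene symbols, protein and promoter sequences were not used here, so the motif search was not run. Alternatives tried were other scalings, filters and pseudocount, limma-voom on recovered fragments, 4 libraries alone, a replicate term, no trend, and leaving out each library.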

Additional observations from a re-analysis of the deposited data

How the results depend on the processing

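Across the 13 alternatives no named gene that passed the test changed sign, and 13 of 1693 values of the 133 named genes lost the call. CYC4 and FNR1, which had not passed, changed sign: CYC4 went from -0.10 to 0.021 without scaling and ranged from -0.24 to 0.039 with a library left out, and FNR1 from -0.15 to 0.16. Counts of genes that rose, fell, rose at least 2-fold and fell at least 2-fold were 1584, 2017, 556 and 388 when the minimum level was 5 FPKM, where fewer genes (4902) were tested. Decreases of at least 2-fold numbered 1298 with a pseudocount of 0.1 and 1327 in limma-voom on recovered fragments, against 640, and the cause was not tested. Leaving out each library gave 3100 to 3190 genes that rose, 4619 to 4854 that fell, 1047 to 1091 that rose at least 2-fold and 639 to 687 that fell at least 2-fold; the lone culture of a time point is then assumed to vary like the others. Without scaling 49.1% of the called genes rose, against 40.0%. The median of Hsp70 chaperones was 0.23 and turned to -0.23 at that minimum, and that of RING finger proteins went from -0.12 to 0.19.

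The replicate letters name cultures and do not pair them: deviations of same-lettered cultures correlated from -0.27 to 0.32 over pairs of time points. With a replicate block 3411 genes rose and 5103 fell, and 1066 and 640 did so at least 2-fold.

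With 2 cultures at each time point, from 1 parent culture, p-values measure only the spread between these cultures. Depth limits low genes most in ZT 12 B, where 3 fragments correspond to a median of 0.074 FPKM. Replicates were sequenced in different lanes, so lane and culture cannot be told apart within a time point.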
